A study of Mus musculus with 12 samples.

Results

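The 10 smooth muscle contractile genes described here were chosen by gene symbol, as 10 of the 25861 genes in the deposited count table. They were the smooth muscle actins Acta2 and Actg2, the actin-binding genes Tagln, Cnn1, Tpm2, Lmod1 and Csrp1, and the myosin genes Myh11, Myl9 and Mylk. All 10 were among the 17025 genes that passed the filter on low counts. The study asked how loss of Claudin 7 (Cldn7), an epithelial tight junction protein, bears on invasion of mouse mammary tumour organoids. Its title names a smooth muscle actin programme, so the direction in which these genes moved is not independent evidence.

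The 3 groups of 4 libraries were sh2Cldn7 and sh1Cldn7, organoids carrying either of 2 short hairpin RNAs against Cldn7, and shControl, organoids carrying a non-targeting hairpin and labelled WT for genotype. In all groups the organoids came from primary MMTV-Neu tumours, in which a mouse mammary tumour virus promoter drives the Neu oncogene in mammary epithelium, and the cells are labelled primary epithelial cells. All were infected with lentivirus at a multiplicity of 20, selected with 3 µg/ml puromycin for 3 days, and kept for 5 days in collagen I gels with 2.5 nM FGF2. Each group has replicates 1 to 4, and the labels do not say whether these are separate mice, so the p-values measure the spread between these libraries, which may be partly technical.

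Smooth muscle contracts when myosin light chain kinase phosphorylates the light chains of smooth muscle myosin, which then pulls on filaments of smooth muscle actin, and calponin, tropomyosin and transgelin bind and regulate those filaments. Transcription of many of these genes is driven by serum response factor (SRF), which binds the CArG box, together with the cofactors myocardin and the myocardin-related factors MRTF-A and MRTF-B. In the mammary gland the same genes are made by myoepithelial cells, which squeeze milk from the alveoli, and also by vascular smooth muscle, pericytes and activated fibroblasts.

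The libraries held 34988358 to 76329473 counts. Those of replicates 1 and 2 held 34988358 to 44645514, and those of replicates 3 and 4 held 68581024 to 76329473. Cldn7 averaged 28.4 ± 4.29 CPM (counts scaled to library size) with sh2Cldn7, 33.6 ± 7.15 CPM with sh1Cldn7 and 142 ± 34.6 CPM in shControl (SD, n = 4 each), and no hairpin library overlapped a control library. Epithelial markers were high in every library, with Krt8, a luminal keratin, at 603 to 1323 CPM and Krt14, a basal keratin, at 372 to 1599 CPM. Levels below are CPM with TMM scaling. In bulk RNA, a change in the number of cells that make a transcript and a change in the amount made per cell cannot be told apart.

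Short stretches around the motifs that SRF and TEAD factors bind are shown because SRF and its cofactors drive many smooth muscle genes. RefSeq promoter windows of GRCm38.p6, covering 250 bases before to 50 bases after a start, were at hand for 7 of the 10 genes (not for Actg2, Tagln and Myh11). They were searched on both strands for the CArG box and for the MCAT core CATTCC. Capitals mark the match, and each stretch is written 5′ to 3′ on the strand of its gene.
Acta2, CArG-like, chr19:34255438-34255467, minus strand: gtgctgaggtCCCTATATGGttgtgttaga
Acta2, CArG-like, chr19:34255388-34255417, minus strand: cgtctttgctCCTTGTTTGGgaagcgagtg
Acta2, MCAT, chr19:34255502-34255531, minus strand: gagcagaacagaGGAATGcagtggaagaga
Myl9, CArG, chr2:156775293-156775322, plus strand: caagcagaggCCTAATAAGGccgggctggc
Myl9, CArG-like, chr2:156775355-156775384, plus strand: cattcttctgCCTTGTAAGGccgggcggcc
Mylk, MCAT, chr16:34784780-34784809, plus strand: tgcagttcagaaCATTCCctggtacgtgca
Lmod1, MCAT, chr1:135324671-135324700, plus strand: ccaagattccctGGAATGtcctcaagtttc

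The exact CArG box was found in the window of 1 member, Myl9, and in 1.63% of all 32851 windows. When 1 G or C was allowed among its 6 A or T bases, Acta2 joined it, and 9.98% of all windows held such a box. This looser form was chosen after the data were seen. The MCAT core stood in the windows of Acta2, Mylk and Lmod1 and in 14.7% of all windows. Cnn1 had the largest fold change of the 10 genes with sh2Cldn7 and with both hairpins, and none of these letters occurred in its window. Its first 200 bases are shown for comparison.
Cnn1, no match, chr9:22099003-22099202, plus strand: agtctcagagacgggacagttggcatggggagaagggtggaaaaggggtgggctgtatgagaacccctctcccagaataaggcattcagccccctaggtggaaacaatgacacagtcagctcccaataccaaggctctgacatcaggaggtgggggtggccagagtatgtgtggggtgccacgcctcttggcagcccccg
The windows of Tpm2 and Csrp1 held none of them either. A missing match says only that these letters are not in this window.

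When libraries were blocked by replicate number, 7 of the 10 genes rose with sh2Cldn7 (Acta2, Actg2, Tagln, Cnn1, Myh11, Tpm2 and Csrp1), 1 rose with sh1Cldn7 (Csrp1), and 5 rose with both hairpins pooled (Actg2, Tagln, Cnn1, Myh11 and Csrp1). None fell. Of all genes tested, 5.76% were called with sh2Cldn7 (2.83% higher, 2.93% lower), 0.728% with sh1Cldn7 (0.382% higher, 0.347% lower) and 1.79% with both (0.84% higher, 0.946% lower). The median log2 fold change of the 10 genes was 1.04 with sh2Cldn7 and 0.50 with sh1Cldn7, where the medians of all genes were 0.0044 and -0.0019. Lmod1, Myl9 and Mylk passed in none of these comparisons. The calls per hairpin depended on which libraries were fitted. With only the 2 groups compared in the blocked fit, 3 members passed with sh2Cldn7 (Tagln, Cnn1 and Myh11, 0.588% of all genes) and 5 with sh1Cldn7 (Actg2, Tagln, Cnn1, Tpm2 and Csrp1, 2.39% of all genes). The estimates changed little, as for Csrp1 with sh2Cldn7 at a log2 of 0.41 in both fits (edgeR adjusted p = 0.055 with only the groups compared). These calls come from edgeR's quasi-likelihood test at a Benjamini-Hochberg adjusted p under 0.05, computed across all genes of each fit.

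In the model with group alone, none of the 10 genes passed in any comparison, where 0.00587% of all genes were called in each. Their smallest adjusted p was 0.869, for Tagln with sh2Cldn7 (edgeR quasi-likelihood test). An unadjusted p under 0.05 was reached by 5 members with sh2Cldn7 (3.56% of all genes), 1 with sh1Cldn7 (1.8%) and 5 with both hairpins (2.38%). DESeq2 with group alone called 1 of the 10, Tagln with sh2Cldn7, where it called 60 of the 17025 genes tested. The common biological coefficient of variation was 0.648 with group alone and 0.141 with the replicate number. Values given below with an adjusted p are from the model with the replicate number unless the sentence says otherwise.

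**Figure D1:**
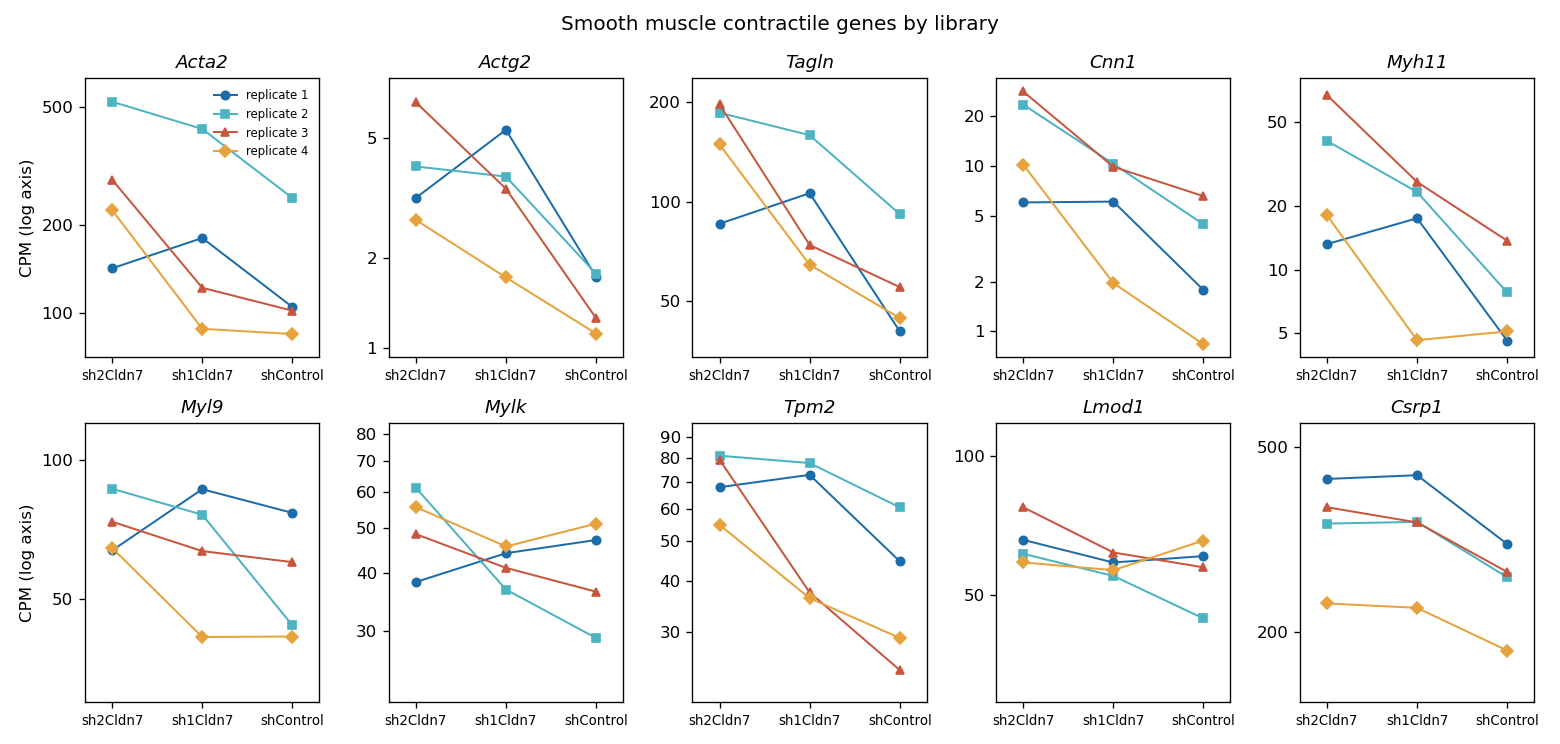
CPM of the 10 genes in every library (log axis), with sh2Cldn7, sh1Cldn7 and shControl from left to right; a line joins the libraries of 1 replicate number. The lines of Csrp1 run nearly parallel, at 182 to 309 CPM in shControl, while those of Mylk and Lmod1 cross.

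Acta2, the alpha smooth muscle actin of vessels, myoepithelium and myofibroblasts, had 142, 522, 284 and 224 CPM in the sh2Cldn7 libraries of replicates 1 to 4, 180, 422, 122 and 88.5 CPM in the sh1Cldn7 libraries, and 105, 246, 102 and 85.0 CPM in the shControl libraries. Replicate 2 was the highest in all 3 groups, and its control library at 246 CPM exceeded 2 of the 4 sh2Cldn7 libraries and 3 of the 4 sh1Cldn7 libraries. Within a replicate number, every hairpin library was above its control, by 0.44 to 1.48 on the log2 scale with sh2Cldn7 and by 0.06 to 0.78 with sh1Cldn7. Acta2 rose 2.21-fold with sh2Cldn7 (log2 1.14, SE 0.23, edgeR adjusted p = 0.0193). With sh1Cldn7 the estimate was 1.42-fold (log2 0.50, SE 0.22, edgeR adjusted p = 0.384), and with both hairpins 1.77-fold (log2 0.82, SE 0.20, edgeR adjusted p = 0.0653). An exact two-sided permutation test on Acta2 alone, exchanging the control label among the 3 libraries of a replicate number, gave p = 0.0494 over 81 arrangements, where the smallest possible p is 0.0123.

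Actg2, the gamma smooth muscle actin typical of gut and other visceral muscle, was the lowest of the 10 genes per kilobase of exon in every group. It had 3.16, 4.02, 6.57 and 2.67 CPM with sh2Cldn7, 5.32, 3.72, 3.39 and 1.72 CPM with sh1Cldn7, and 1.73, 1.77, 1.26 and 1.12 CPM in shControl. All 4 sh2Cldn7 libraries lay above all 4 control libraries. It was the only member with such a gap for sh2Cldn7, where 0.887% of all genes were higher without overlap. The lowest sh1Cldn7 library, at 1.72 CPM, lay within the control range, and 0 members were higher without overlap with sh1Cldn7 (0.576% of all genes) or with both hairpins (0.176%). Actg2 rose 2.75-fold with sh2Cldn7 (log2 1.46, SE 0.29, edgeR adjusted p = 0.0197) and 2.51-fold with both hairpins (log2 1.33, SE 0.26, edgeR adjusted p = 0.0334). With sh1Cldn7 alone it was 2.29-fold higher without passing (log2 1.19, SE 0.29, edgeR adjusted p = 0.103).

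The actins are close relatives, so the ends of their coding sequences are shown to make clear what keeps their reads apart. These are the last 60 coding bases including the stop codon, from GENCODE M21 on GRCm38, with capitals where a gene differs from Acta2.
Acta2, chromosome 19: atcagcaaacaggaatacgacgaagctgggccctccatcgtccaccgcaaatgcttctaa
Actg2, chromosome 6: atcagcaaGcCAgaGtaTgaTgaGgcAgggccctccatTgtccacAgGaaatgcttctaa
Acta1, chromosome 8: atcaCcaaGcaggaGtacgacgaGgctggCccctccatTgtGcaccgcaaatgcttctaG
Actb, chromosome 5: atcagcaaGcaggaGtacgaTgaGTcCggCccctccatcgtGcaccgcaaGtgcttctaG
Acta2 and Actg2 were identical at 84.2% of aligned coding bases, and their longest identical run was 29 bases. Of all runs of 50 bases in the transcripts, 0.3% of those of Acta2 and 0% of those of Actg2 occurred in a transcript of another gene, against 37.4% for Actg1, a cytoplasmic actin. None of the other 4 actins passed in any comparison. Acta1, the skeletal muscle actin, had a log2 fold change of 0.38 with sh2Cldn7 (SE 0.43, edgeR adjusted p = 0.652), and Actb, the cytoplasmic beta actin, of -0.05 (SE 0.06, edgeR adjusted p = 0.68). Actc1, the cardiac actin, was at 0.31 (SE 0.76, edgeR adjusted p = 0.853) and Actg1 at -0.19 (SE 0.06, edgeR adjusted p = 0.0942).

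Tagln, which encodes transgelin (SM22), an actin-bundling protein, had 85.6, 186, 197 and 149 CPM with sh2Cldn7, 106, 159, 73.8 and 64.3 CPM with sh1Cldn7, and 40.4, 91.6, 55.0 and 44.3 CPM in shControl. Only the highest control library, replicate 2 at 91.6 CPM, reached into the sh2Cldn7 range. Tagln rose 2.76-fold with sh2Cldn7 (log2 1.47, SE 0.23, edgeR adjusted p = 0.00863) and 2.21-fold with both hairpins (log2 1.14, SE 0.21, edgeR adjusted p = 0.0266). It was 1.77-fold higher with sh1Cldn7 without passing (log2 0.82, SE 0.23, edgeR adjusted p = 0.159). The exons of Tagln, on chromosome 9 from 45929619 to 45936058 on the minus strand, are overlapped over 67.9% of their bases by genes on the opposite strand, Pcsk7 and Gm48529. The library kit does not mark strand, so reads there cannot be assigned to Tagln by strand. Pcsk7 itself had 82.3 to 95.3 CPM with sh2Cldn7, 76.8 to 98.2 CPM with sh1Cldn7 and 74.6 to 98.0 CPM in shControl, with a log2 fold change of 0.03 with sh2Cldn7 (SE 0.06, edgeR adjusted p = 0.828).

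Cnn1, which encodes basic calponin, an actin-binding inhibitor of the myosin ATPase, had the largest fold change of the 10 genes with sh2Cldn7. Its levels were 6.02, 23.5, 28.2 and 10.2 CPM with sh2Cldn7, 6.09, 10.3, 9.88 and 1.96 CPM with sh1Cldn7, and 1.78, 4.44, 6.57 and 0.836 CPM in shControl. The ranges overlapped, because the control library of replicate 3, at 6.57 CPM, exceeded the sh2Cldn7 library of replicate 1. In replicate 4 the sh2Cldn7 library stood 11.72-fold above its control, which rested on 61 counts. Cnn1 rose 5.61-fold with sh2Cldn7 (log2 2.49, SE 0.33, edgeR adjusted p = 0.00394) and 3.57-fold with both hairpins (log2 1.83, SE 0.30, edgeR adjusted p = 0.0193). With sh1Cldn7 it was 2.27-fold higher without passing (log2 1.18, SE 0.33, edgeR adjusted p = 0.15).

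Csrp1, a LIM-domain protein that binds alpha-actinin and is expressed well beyond smooth muscle, was the highest of the 10 genes per kilobase of exon in every group. It had 427, 342, 371 and 230 CPM with sh2Cldn7, 435, 345, 344 and 225 CPM with sh1Cldn7, and 309, 262, 269 and 182 CPM in shControl. Replicate 4 was the lowest in each group, and the hairpin libraries of replicate 4 lay within the control range. Its change was small and even, since the 8 paired differences ran only from 0.30 to 0.49 on the log2 scale. It rose 1.33-fold with sh2Cldn7 (log2 0.41, SE 0.05, edgeR adjusted p = 0.00265), 1.31-fold with sh1Cldn7 (log2 0.39, SE 0.05, edgeR adjusted p = 0.0107) and 1.32-fold with both (log2 0.40, SE 0.04, edgeR adjusted p = 0.00445). By p-value Csrp1 ranked 13 of all 17025 genes for both hairpins together, and it passed in all 12 fits that left out 1 library.

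Tpm2, the beta tropomyosin that lies along actin filaments, had 67.9, 81.1, 79.3 and 54.9 CPM with sh2Cldn7, 72.8, 77.8, 37.5 and 36.3 CPM with sh1Cldn7, and 44.7, 60.6, 24.2 and 29.0 CPM in shControl. The sh2Cldn7 libraries overlapped the control range only at replicate 4. It rose 1.91-fold with sh2Cldn7 (log2 0.94, SE 0.19, edgeR adjusted p = 0.0212), and its estimate with both hairpins was 1.65-fold (log2 0.72, SE 0.17, edgeR adjusted p = 0.0607). With sh1Cldn7 it was at a log2 of 0.50 (SE 0.19, edgeR adjusted p = 0.293). Lmod1, leiomodin 1, which nucleates actin filaments in smooth muscle, had 65.9, 61.5, 77.5 and 58.9 CPM with sh2Cldn7, 58.9, 55.1, 61.9 and 56.7 CPM with sh1Cldn7, and 60.8, 44.6, 57.5 and 65.7 CPM in shControl. The 3 ranges overlapped widely, and its log2 fold change was 0.21 with sh2Cldn7 (SE 0.10, edgeR adjusted p = 0.225) and 0.03 with sh1Cldn7 (SE 0.10, edgeR adjusted p = 0.936).

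Among the myosin genes, Myh11, the smooth muscle myosin heavy chain and a marker of mature smooth muscle, had 13.2, 40.7, 67.0 and 18.1 CPM with sh2Cldn7, 17.5, 23.3, 26.0 and 4.63 CPM with sh1Cldn7, and 4.61, 7.79, 13.7 and 5.10 CPM in shControl. The control library of replicate 3, at 13.7 CPM, was just above the lowest sh2Cldn7 library at 13.2 CPM. Myh11 rose 4.08-fold with sh2Cldn7 (log2 2.03, SE 0.32, edgeR adjusted p = 0.0083) and 2.99-fold with both hairpins (log2 1.58, SE 0.29, edgeR adjusted p = 0.0279). With sh1Cldn7 it was higher in 3 of 4 pairs (log2 1.13, SE 0.32, edgeR adjusted p = 0.164), and in replicate 4 its log2 difference from the control was -0.14.

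Myl9, the regulatory light chain of smooth muscle and non-muscle myosin, had 63.8, 86.7, 73.6 and 64.6 CPM with sh2Cldn7, 86.5, 76.2, 63.6 and 41.5 CPM with sh1Cldn7, and 76.9, 44.0, 60.2 and 41.6 CPM in shControl. Mylk, the kinase that phosphorylates that light chain, had 38.3, 61.2, 48.6 and 55.6 CPM with sh2Cldn7, 44.2, 36.9, 41.1 and 45.7 CPM with sh1Cldn7, and 47.2, 29.0, 36.5 and 51.2 CPM in shControl. Both genes had a sh2Cldn7 library below its own control in replicate 1, by -0.27 and -0.30 on the log2 scale, and both were about 1 log2 unit above it in replicate 2, at 0.98 and 1.08. With sh2Cldn7 the log2 fold change was 0.41 for Myl9 (SE 0.18, edgeR adjusted p = 0.195) and 0.33 for Mylk (SE 0.17, edgeR adjusted p = 0.274). With sh1Cldn7 it was 0.25 for Myl9 (SE 0.17, edgeR adjusted p = 0.609) and 0.05 for Mylk (SE 0.17, edgeR adjusted p = 0.946). Antisense transcripts overlap 6.9% of the exon bases of Mylk, and their reads cannot be told from its own.

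**Figure D2:**
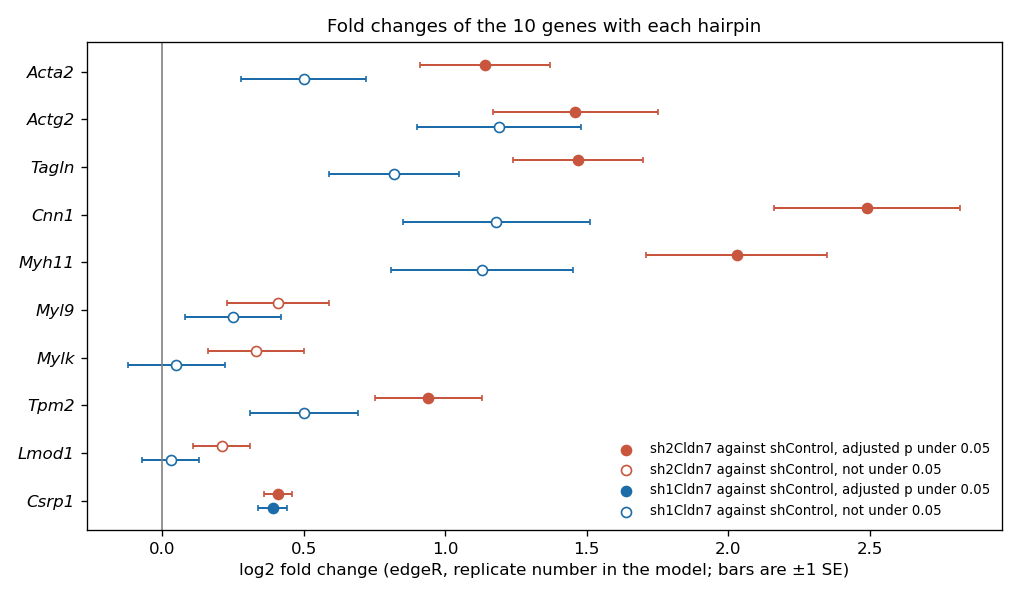
log2 fold change of each gene with sh2Cldn7 (upper point of each pair) and sh1Cldn7 (lower point) against shControl, fitted with replicate number as a block; bars are 1 SE and filled points have an adjusted p under 0.05. Cnn1 at 2.49 and Myh11 at 2.03 lie farthest right, and the points of Csrp1 lie nearly level at 0.41 and 0.39.

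Agreement between the genes was then followed pair by pair, each pair being a hairpin library and the control library of the same replicate number, so that the sh2Cldn7 and sh1Cldn7 pairs of a number share their control. With sh2Cldn7, 8, 10, 10 and 9 of the 10 genes were above their control in replicates 1 to 4, with median log2 differences of 0.54, 1.05, 1.60 and 1.07. With sh1Cldn7 the counts were 8, 10, 10 and 6, with medians of 0.74, 0.79, 0.39 and 0.18. Over all genes the share above control was 45.2% to 52.8% in the 8 pairs. Acta2, Actg2, Tagln, Cnn1, Tpm2 and Csrp1 were higher in all 8 pairs, 6 of the 10 genes, where 3.69% of all genes were. Over the 4 pairs of each hairpin, 7 members were higher in every pair with sh2Cldn7 (12.5% of all genes) and 6 with sh1Cldn7 (11.6%). Myh11 missed only the sh1Cldn7 pair of replicate 4, Myl9 was higher in 6 pairs, and Mylk and Lmod1 in 5 each. Cnn1 at least doubled in 7 pairs, Actg2 and Myh11 in 6, Tagln in 5 and Acta2 in 3, whereas Csrp1, Myl9 and Lmod1 did so in none.

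The 2 hairpins ordered differently by replicate number. In replicate 1 the sh2Cldn7 library was above the sh1Cldn7 library for only 1 of the 10 genes, Lmod1, with a median log2 difference of -0.26. In replicates 2, 3 and 4 it was above for 9, 10 and 10 genes, with medians of 0.21, 1.01 and 0.63, against 47.2% to 51.7% of all genes. Acta2, for example, differed by -0.35, 0.31, 1.23 and 1.34 between the hairpins in replicates 1 to 4, Tagln by -0.31, 0.23, 1.42 and 1.21, and Myh11 by -0.41, 0.80, 1.36 and 1.96. Csrp1 stayed between -0.03 and 0.11. Only Lmod1 was higher with sh2Cldn7 in all 4 numbers, as 15.6% of all genes were, and 0 members did so without overlap of the libraries (1.12% of all genes). Over all 4 numbers, 0 of the 10 genes passed for sh2Cldn7 against sh1Cldn7, where 3.44% of all genes were called (1.57% higher, 1.87% lower), and 5 had an unadjusted p under 0.05, as 20.1% of all genes did. DESeq2 with the replicate number called 1 member, Cnn1, where it called 1436 of the 17025 genes tested. The edgeR log2 difference of Cnn1 was 1.31 (SE 0.32, edgeR adjusted p = 0.0549).

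**Figure D3:**
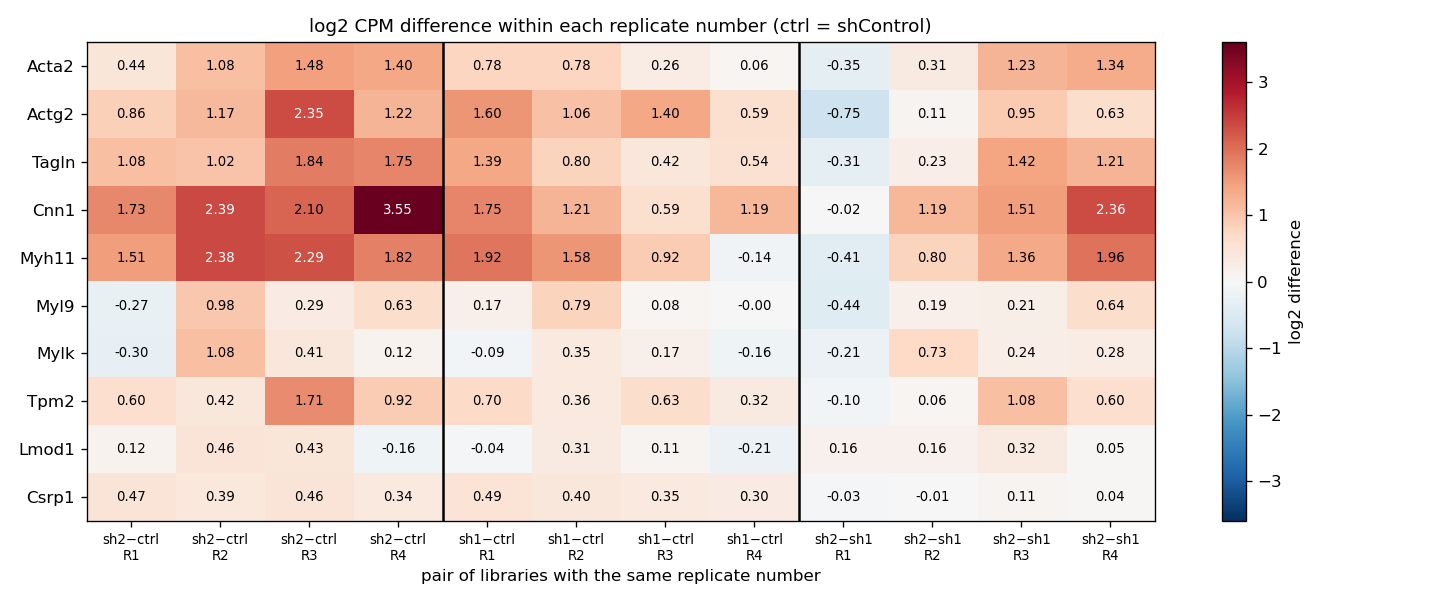
log2 CPM difference of each gene within each replicate number, for sh2Cldn7 minus shControl, sh1Cldn7 minus shControl and sh2Cldn7 minus sh1Cldn7 from left to right. Red is higher in the first-named library; the column of sh2Cldn7 minus sh1Cldn7 in replicate 1 is mostly blue, and Cnn1 in replicate 4 with sh2Cldn7 holds the largest value, 3.55.

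Because replicates 1 and 2 were sequenced less deeply than replicates 3 and 4, the comparisons were repeated within each of these pairs. The pairs differed in more than depth, since Actg1 had 3934, 3138, 741 and 585 CPM in shControl replicates 1 to 4. What sets the pairs apart is not given in the labels and was not tested. Within replicates 1 and 2 the difference between the hairpins was near 0 for Acta2 (log2 -0.01, SE 0.16, edgeR adjusted p = 0.988) and Tagln (log2 -0.05, SE 0.14, edgeR adjusted p = 0.92), and 0 of the 10 genes passed where 0.506% of all genes did. Within replicates 3 and 4 both were higher with sh2Cldn7 than with sh1Cldn7, Acta2 by 1.28 (SE 0.10) and Tagln by 1.31 (SE 0.10) on the log2 scale, each with an edgeR adjusted p of 0.0329. They were the 2 members called there, where 0.254% of all genes were called. The difference of these differences, tested in 1 model, was 1.29 for Acta2 (SE 0.21, edgeR adjusted p = 0.509) and 1.36 for Tagln (SE 0.19, edgeR adjusted p = 0.357). No gene of the 17025 passed that test (0%), 724 had an unadjusted p under 0.05, and 6 of these were members. This test was chosen after the differences by number had been seen.

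The effect of both hairpins was also followed within these pairs of replicate numbers. Tagln passed within replicates 1 and 2 (log2 1.07, SE 0.13, edgeR adjusted p = 0.0433) and within replicates 3 and 4 (log2 1.16, SE 0.09, edgeR adjusted p = 0.0441), the only member called in either, where 0.151% and 0.0303% of all genes were called. With sh2Cldn7 alone 3 members passed within replicates 1 and 2 (Tagln, Cnn1 and Myh11, 0.494% of all genes) and 5 within replicates 3 and 4 (Acta2, Tagln, Cnn1, Myh11 and Tpm2, 1.98% of all genes). With sh1Cldn7 alone 0 passed in either, where 0.0542% and 0.00605% of all genes did. In a direct test of whether the effect of both hairpins differed between these pairs of replicate numbers, 0 of 17025 genes passed (0%). An unadjusted p under 0.05 was reached by 1033 genes. With 2 replicate numbers on each side, a lack of calls does not show that the effects were equal. The largest difference among the members was that of Myh11, at -0.65 (SE 0.38, edgeR adjusted p = 0.912).

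How much of the variation went with the group differed among the members. Group accounted for 63.2% of the sum of squares of log2 CPM of Actg2, 59.5% for Tagln, 49.7% for Cnn1 and 47.3% for Myh11, and for 21.0% for Myl9, against a median of 8.3% over all genes. The replicate number accounted for 73.2% for Csrp1 and 59.8% for Acta2, and for a median of 74.6% over all genes. Only 0.9% was left over for Csrp1, against 55.4% for Mylk.

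**Figure D4:**
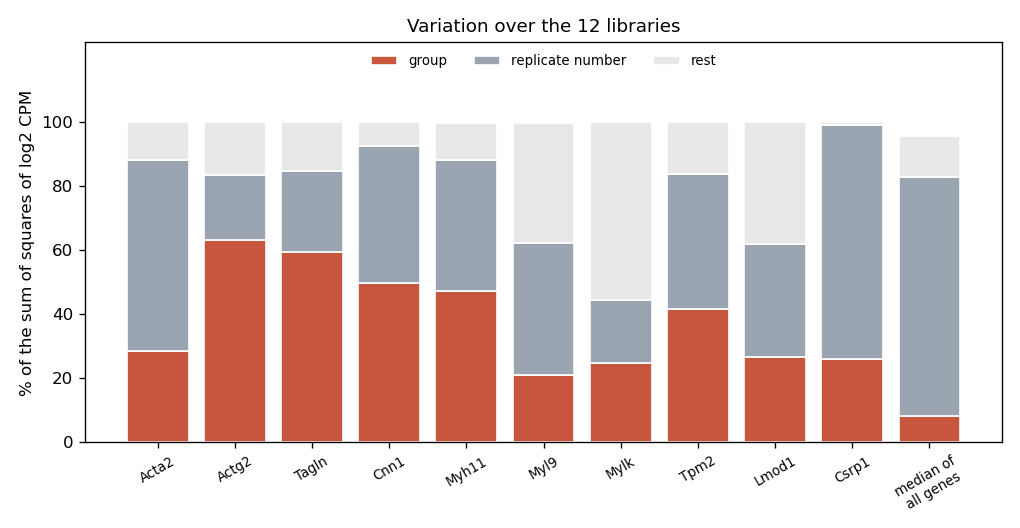
Share of the sum of squares of log2 CPM over the 12 libraries that goes with group, with replicate number and with neither, for each gene and as medians over all genes tested, which need not add up to the whole. Actg2 has the largest group share of the members, 63.2%, and Csrp1 the smallest rest, 0.9%.

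Leaving out 1 library at a time changed how many members passed with both hairpins together, from 1 without replicate 1 or 4 of shControl to 6 without replicate 1, 2 or 3 of sh2Cldn7. It was 2 without replicate 3 of shControl, replicate 2 of sh1Cldn7 or replicate 4 of sh2Cldn7, and 3 without replicate 2 of shControl or replicate 3 of sh1Cldn7. The number of all genes called also varied, from 39 to 554. Over these 12 fits Cnn1 passed in 10, Tagln in 7, Myh11 in 5 and Actg2 in 3, where their highest edgeR adjusted p was 0.0801 for Cnn1, 0.111 for Tagln and Myh11, and 0.126 for Actg2. For sh2Cldn7 alone 4 to 7 members passed, the fewest without replicate 1 or 3 of shControl or replicate 4 of sh2Cldn7. Of all genes, 342 to 1076 were called in these fits. Tagln, Cnn1, Myh11 and Csrp1 passed with sh2Cldn7 in all 12 fits, Actg2 in 9, and Acta2 and Tpm2 in 8 each. The member passing with sh1Cldn7, Csrp1, did so in 8 of the 12 fits (edgeR adjusted p from 0.00544 to 0.0694), where 2 to 344 of all genes were called.

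The wider smooth muscle list held 36 other contractile genes, including Cald1, Smtn, Tpm1 and Des. With both hairpins 0 passed in either direction, where 1.79% of all genes were called. Their median log2 fold change was 0.119 (29 positive), against -0.0024 over all genes, of which 49.4% were positive. With sh2Cldn7 the median was 0.236 (28 positive), and 5.76% of all genes were called. Jph2 (log2 1.30) and Ppp1r12c (log2 0.34) rose with sh2Cldn7, and Itga8 (log2 -0.29) fell, with edgeR adjusted p of 0.0176, 0.0323 and 0.0144. Des, the intermediate filament desmin of muscle, had 2.49 to 10.9 CPM with sh2Cldn7, 1.43 to 9.96 CPM with sh1Cldn7 and 1.40 to 9.52 CPM in shControl. Of 14 genes for calcium signalling and contractile receptors, 0 passed with both hairpins, and 1 rose with sh2Cldn7, Prkg1, the cGMP-dependent protein kinase (log2 0.64, SE 0.13, edgeR adjusted p = 0.0249). Their summed level was 1651 to 1879 CPM with sh2Cldn7, 1604 to 2134 CPM with sh1Cldn7 and 1749 to 2456 CPM in shControl, and it was higher in 0 of the 8 pairs. That sum does not weigh the genes alike. The median log2 fold change of the 14 genes was 0.174 with both hairpins (8 positive) and 0.186 with sh2Cldn7 (7 positive). Oxtr, the oxytocin receptor through which myoepithelium is made to contract, had 48.5 to 134 CPM with sh2Cldn7, 55.6 to 138 CPM with sh1Cldn7 and 73.1 to 185 CPM in shControl (log2 -0.32 for both, SE 0.14, edgeR adjusted p = 0.276).

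SRF and its cofactors were listed with 12 genes, of which 10 were tested, and 0 passed with both hairpins. Srf had 71.2 to 88.8 CPM with sh2Cldn7, 70.0 to 97.7 CPM with sh1Cldn7 and 68.9 to 94.5 CPM in shControl (log2 0.03 for both, SE 0.05, edgeR adjusted p = 0.765). Mrtfa, which encodes MRTF-A, rose with sh2Cldn7 (log2 0.37, SE 0.09, edgeR adjusted p = 0.0386), as did Tead1, a TEAD factor that binds the MCAT motif (log2 0.54, SE 0.12, edgeR adjusted p = 0.0286). With sh1Cldn7 Mrtfa was at 0.11 (SE 0.09, edgeR adjusted p = 0.682). Mrtfb, which encodes MRTF-B, was at 0.26 with sh2Cldn7 (SE 0.07, edgeR adjusted p = 0.0703) and at -0.10 with sh1Cldn7 (SE 0.07, edgeR adjusted p = 0.644). It was higher with sh2Cldn7 than with sh1Cldn7 (log2 0.36, SE 0.07, edgeR adjusted p = 0.0294). Myocd, which encodes myocardin, stayed at or below 0.242 CPM in all libraries and had no count in some.

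Summed markers of fibroblasts, of pericytes and vascular smooth muscle, and of basal cells were higher in 8, 7 and 6 of the 8 pairs. Those of skeletal muscle, luminal epithelium, endothelium and macrophages were higher in 5, 3, 3 and 2. The part of these cell types in the results was not tested. The summed level of 13 fibroblast markers was higher in all 8 pairs, at 2624 to 13753 CPM with sh2Cldn7, 989 to 7807 CPM with sh1Cldn7 and 840 to 6209 CPM in shControl. Its log2 differences with sh2Cldn7 were 0.60, 0.15, 1.64 and 1.15 in replicates 1 to 4, and with sh1Cldn7 0.02, 0.20, 0.24 and 0.33. With both hairpins 1 of these 13 genes passed, Col14a1 (log2 1.07, SE 0.20, edgeR adjusted p = 0.0303), and with sh2Cldn7 3 passed, the others being Dcn and Postn. The sum does not weigh the genes alike, since Postn alone averaged 2660 CPM with sh2Cldn7, 1640 CPM with sh1Cldn7 and 1310 CPM in shControl. Col1a1 in replicate 2 had 293 CPM with sh2Cldn7 and 559 CPM in shControl. The median log2 fold change of the 13 genes was 0.634 with sh2Cldn7 (12 positive) and 0.142 with sh1Cldn7 (10 positive).

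The summed level of 14 pericyte and vascular smooth muscle markers was 252 to 547 CPM with sh2Cldn7. It was 227 to 457 CPM with sh1Cldn7 and 211 to 442 CPM in shControl, higher in 7 of 8 pairs. Replicate 4 had the highest sum in each group. In shControl replicates 1 to 4 the sums were 211, 280, 236 and 442 CPM. Notch3 alone had 126, 158, 167 and 178 CPM there, and Pdgfrb 19.3, 7.25, 10.8 and 123 CPM. The sum therefore does not weigh the 14 markers alike. Of the 12 tested, 1 passed with both hairpins, Pdgfrb, the PDGF receptor of pericytes (log2 0.47, SE 0.10, edgeR adjusted p = 0.0496), and 3 with sh2Cldn7, Pdgfrb, Rgs4 (log2 1.41, edgeR adjusted p = 0.0291) and Cspg4 (log2 0.74, edgeR adjusted p = 0.0405). Rgs5, a marker of pericytes, had 0.79 to 2.97 CPM with sh2Cldn7, 0.773 to 1.64 CPM with sh1Cldn7 and 0.374 to 0.713 CPM in shControl. It was low, and every hairpin library lay above every control library (log2 1.13 with both hairpins, SE 0.30, edgeR adjusted p = 0.0933). Higd1b, Cox4i2 and Vtn stayed under 1 CPM throughout. A positive log2 fold change was found for 10 of the 12 tested with sh2Cldn7 and for 9 with sh1Cldn7. Not every marker rose. The log2 fold change of Notch3 was -0.14 with sh2Cldn7 (SE 0.07) and -0.07 with both hairpins (SE 0.06). That of Kcnj8 was -0.08 with sh2Cldn7 (SE 0.16) and 0.07 with both hairpins (SE 0.14). Neither gene passed.

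Of 14 basal and myoepithelial markers, 1 rose with both hairpins, Cdh3, the P-cadherin of myoepithelium (log2 0.86, SE 0.14, edgeR adjusted p = 0.0183), and 4 with sh2Cldn7 (Cdh3, Snai2, Trp63 and Col17a1). Their summed level was 16263 to 23807 CPM with sh2Cldn7, 15497 to 22461 CPM with sh1Cldn7 and 14487 to 24530 CPM in shControl, higher in 6 of 8 pairs. This sum does not weigh the genes alike. In shControl replicate 4 it was 24530 CPM, with Krt5 at 108 CPM and Krt14 at 431 CPM. With both hairpins 11 of the 14 had a positive log2 fold change, with a median of 0.292, and with sh2Cldn7 the median was 0.506. The keratins Krt5 (log2 0.90, SE 0.28, edgeR adjusted p = 0.129) and Krt14 (log2 0.43, SE 0.23, edgeR adjusted p = 0.367) did not pass with both hairpins. Oxtr, also on this list, was at -0.32 (SE 0.14, edgeR adjusted p = 0.276). With sh2Cldn7 Krt5 was at 1.14 (SE 0.31, edgeR adjusted p = 0.0617), Krt14 at 0.70 (SE 0.26, edgeR adjusted p = 0.144) and Oxtr at -0.36 (SE 0.17, edgeR adjusted p = 0.237). Of 9 luminal markers, 1 fell with both hairpins, Epcam (log2 -0.25, SE 0.05, edgeR adjusted p = 0.0485). Endothelial markers summed to 1.40 to 9.07 CPM in all libraries, and 0 of the 6 tested passed with both hairpins. Macrophage markers summed to 147 to 373 CPM, with 0 of 10 passing, and 10 skeletal muscle markers summed to 3.71 to 63.2 CPM, with 0 of the 9 tested passing.

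**Figure D5:**
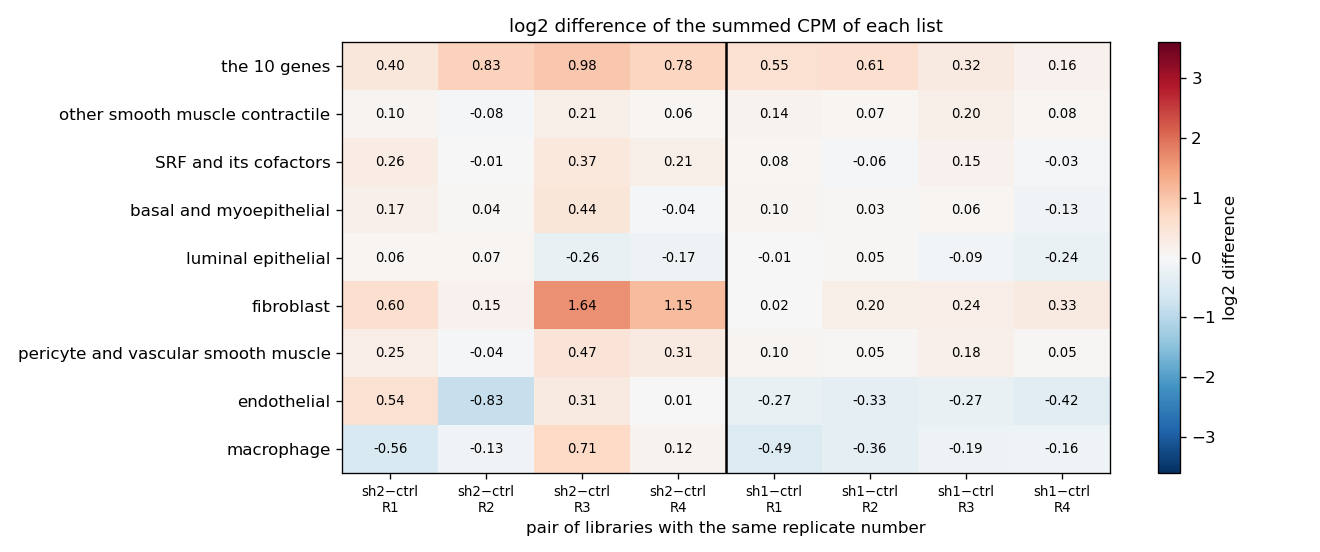
log2 difference of the summed CPM of each gene list between a hairpin library and the control library of its replicate number, for sh2Cldn7 on the left and sh1Cldn7 on the right. The 10 genes and the fibroblast list are positive in all 8 pairs, and the fibroblast list reaches 1.64 in replicate 3 with sh2Cldn7.

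The genes outside the list whose 8 paired differences lay nearest to the mean of the members were sought among 13109 genes, by root mean square distance on the log2 scale. The nearest were Tgfb1i1 (distance 0.258), which encodes the focal adhesion protein Hic-5, then Scube3 (0.284), Flnc (0.295), an actin cross-linking filamin of muscle, Slc8a1 (0.304), a sodium-calcium exchanger, and Rasl12 (0.304). Nearest to Acta2 itself were Tgfb1i1 (0.222), Igsf10 (0.312) and Sp100 (0.317). They were picked on these differences between hairpin and control, so no test of them is given.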

How the data were processed

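RNA from 12 libraries, 4 in each of 3 groups, was compared. The authors deposited whole-number read counts per gene in 1 table, whose name refers to featureCounts. Per the submitters' processing notes, FastQC 0.74, Trimmomatic 0.39 and DESeq2 1.34.0 were used, with the build mm10. The aligner and the strand setting of counting are not given in the labels or headers used here. Counts were tested in R 4.3.3 with edgeR 4.0.16 (TMM scaling, filterByExpr, quasi-likelihood test, Benjamini-Hochberg adjustment), by group alone as the planned test and with the replicate number as a block, and with DESeq2 1.42.0. The scripts were first tested on simulated data. The labels do not say that a number marks a shared mouse or day, but libraries with the same number deviated together from their group means (r of 0.855 to 0.916 in 12 pairs, against -0.807 to 0.727 in 36 pairs of different numbers), so the numbers pair the libraries and blocked values are printed. Libraries of a group differed by 41 to 480 times the sampling variance (chi-square per degree of freedom), so none was a duplicate. Log2 CPM used a prior count of 2. Precision is limited by 4 libraries a group, at 34988358 to 76329473 counts a library.

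The members, gene lists and tests were chosen with earlier results of these data known. The text names all members and Cldn7, and from each list up to 4 genes of smallest p among those past the threshold for both hairpins with the block. The 5 genes nearest to the members' mean and the 3 nearest to Acta2 needed a mean of at least 2 CPM. Other genes, such as those passing with sh2Cldn7 alone, were chosen after their values were seen. Alternatives were other scalings, no filter on low counts, only the groups compared, replicates 1 and 2 or 3 and 4 only, and leaving out each library. Proteins were not analysed here, and 1 gene of the wider smooth muscle list is not reported here.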

Additional observations from a re-analysis of the deposited data

How the results depend on the processing

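The planned test, group alone, called 0 of the 10 genes in each comparison, and the calls in the report rest on the replicate block. With the replicate block, members called (and all genes called) were 7 (981) for sh2Cldn7, 1 (124) for sh1Cldn7, 5 (304) for both hairpins and 0 (585) for sh2Cldn7 against sh1Cldn7. In the same order, the replicate block gave 7 (1856), 3 (607), 7 (1145) and 1 (1436) with DESeq2, 7 (996), 1 (118), 5 (311) and 0 (581) with relative log expression size factors, 7 (899), 1 (112), 5 (244) and 1 (598) with library totals, and 7 (1041), 1 (152), 7 (393) and 1 (644) with no filter on low counts. With library totals the calls split into 581 higher and 318 lower for sh2Cldn7, against 482 and 499 with TMM, into 147 and 97 for both hairpins, against 143 and 161, and into 340 and 258 for sh2Cldn7 against sh1Cldn7, against 267 and 318. Fitting only the groups compared, the block gave 3 (97) for sh2Cldn7, 5 (390) for sh1Cldn7 and 0 (504) between the hairpins; without the block all genes called were 0 for sh2Cldn7 and 0 for sh1Cldn7. DESeq2 with group alone called 60 genes (1 member), 27, 41 and 50. With replicates 1 and 2 only the block gave 3 (82), 0 (9), 1 (25) and 0 (84), and with replicates 3 and 4 only 5 (327), 0 (1), 1 (5) and 2 (42). Leaving out each library with the block gave 4 to 7 members (342 to 1076 genes) for sh2Cldn7, 0 to 3 (2 to 344) for sh1Cldn7, 1 to 6 (39 to 554) for both and 0 to 2 (165 to 672) between the hairpins; with group alone it gave 0 members and 0 to 1 genes.

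No member changed sign for sh2Cldn7 or for both hairpins in any alternative. The leave-out ranges that follow pool the fits with group alone and those with the block. For sh1Cldn7, Acta2 ranged from -0.04 to 1.06 (log2) over the fits that left out a library, Mylk from -0.11 to 0.19 and Lmod1 from -0.08 to 0.14, and Lmod1 was -0.04 with replicates 3 and 4 only. In the blocked leave-out fits alone, Acta2 ranged from 0.28 to 0.67, while Mylk and Lmod1 still changed sign. For sh2Cldn7 against sh1Cldn7, leaving out a library gave -0.11 to 0.52 for Actg2, -0.06 to 0.35 for Myl9 and -0.13 to 0.17 for Csrp1. The blocked fits among these gave -0.05 to 0.52 for Actg2, 0.04 to 0.35 for Myl9 and 0.01 to 0.05 for Csrp1. With replicates 1 and 2 only and the block, Acta2 was -0.01, Actg2 -0.33, Tagln -0.05, Myl9 -0.10, Tpm2 -0.03 and Csrp1 -0.03. The block changed no call other than those given in the report. The cause of these changes was not tested. The exact CArG box was found in 1 member, and the looser form in 2. No library stood apart from its group by Dixon's test in 30 groups of 4.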
